A study of Rattus norvegicus with 484 samples.

Results

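The phase II conjugation enzymes are the 53 genes, of 10210 genes named on the array, whose platform symbol begins with Gst, Mgst, Ugt1, Ugt2 or Sult, together with Ephx1, Ephx2 and Nqo1. Membership goes by name and not by any measured value, but the set was chosen with earlier results of these data known. The cytosolic glutathione S-transferases gave 21 members (6 alpha, 7 mu, 2 pi, 3 theta and 3 others) and the microsomal ones 3. The UDP-glucuronosyltransferases gave 9 members of the UGT1 locus and 8 of the UGT2 families, the sulfotransferases 5 SULT1 and 4 SULT2 members, and Ephx1, Ephx2 and Nqo1 completed the set. These genes were represented by 161 probes, and 43 of them by more than 1 probe, which were averaged.

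Conjugation enzymes attach a water-soluble group to drugs, hormones, bilirubin, steroids and reactive metabolites so that bile or urine can carry them away. Glutathione S-transferases couple electrophiles to glutathione, UDP-glucuronosyltransferases add glucuronic acid in the endoplasmic reticulum, and sulfotransferases add a sulfonate group in the cytosol. Epoxide hydrolases open reactive epoxides with water, and NAD(P)H quinone dehydrogenase (Nqo1) reduces quinones before they are conjugated. The liver is the main site of this chemistry. Several of the genes are known to respond to ligand-activated receptors such as CAR, PXR, the aryl hydrocarbon receptor and PPARA, and others to the antioxidant factor NRF2.

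The labels describe rats treated with 1 of 5 nuclear receptor ligands or with vehicle and sampled on days 2 to 6. Doses are given with the labels' unit mkd. In liver, fenofibrate at 400 mkd had 14 arrays, bezafibrate at 250 mkd, Wy-14,643 at 100 mkd, rosiglitazone at 100 mkd and retinoic acid at 25 mkd had 15 each, and vehicle had 73. Fenofibrate, bezafibrate and Wy-14,643 activate PPARA, the receptor that drives fatty acid oxidation in liver; rosiglitazone activates PPARG, and retinoic acid the retinoic acid receptors. At the same doses, soleus, a slow-twitch leg muscle, had 19, 20, 18, 20 and 20 treated arrays in that order and 35 of vehicle, and quad had 18, 20, 16, 16 and 18 treated arrays and 63 of vehicle. EDL, a fast-twitch leg muscle, had 54 arrays and none of single vehicle rats: fenofibrate at 50 mkd (9), bezafibrate at 25 mkd (9), Wy-14,643 at 10 mkd (12), rosiglitazone at 10 mkd (9) and at 100 mkd (4), and retinoic acid at 2.5 mkd (11). Strain, sex and age are not given in the labels, and the number after each label's hash sign was read as a rat's own number.

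On each of the 484 arrays RNA of 1 rat was set against pooled RNA of that tissue from vehicle rats of that day, so every value below is a log2 ratio to that pool or a difference between such ratios. A ratio to a pool of the same tissue holds no absolute level, and the identity of a tissue could not be checked from its markers. Fewer cells of a type and less RNA per cell cannot be told apart in these bulk samples. The direction of the ratio, rat over pool, was inferred from the dyes and read with known PPARA targets in liver: the mean over the 3 PPARA agonists was 8.62-fold for Acot1, an acyl-CoA thioesterase, and 3.83-fold for Cyp4a1, a fatty acid omega-hydroxylase. All 49 members with values on at least 80% of the liver arrays were tested. Gsta1, Gsta2, Gsta5 and Sult2a6 had too few liver values, with the first 3 present on 45.6%, 72.8% and 72.1% of the arrays and Sult2a6 on 5.4%. In 9 arrays the spread of the ratios or the level of another tissue's markers stood apart from the rest. In liver that was 1 rosiglitazone array, rat 1376 of day 4, whose spread was 4.59 times the liver median and whose hepatocyte markers were lower by a median of 3.25 than in its same-day group, so liver results of rosiglitazone are given with and without it. The other 8 were muscle arrays, and they were kept in the main muscle fits. Hepatocyte markers stood 5.11 above the same-day arrays in soleus vehicle rat 1034. In quad they stood 2.25 above in vehicle rat 1042 and 2.66 above in retinoic acid rat 1321.

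In the mean over the 3 PPARA agonists, a block of UGT1 genes, both epoxide hydrolases, the sulfotransferase Sult1c3 and 4 of 7 mu class glutathione S-transferases were higher in liver, and 5 of the 8 UGT2 genes were lower. Ugt1a1, Ugt1a2, Ugt1a3 and Ugt1a5 passed with each agonist on its own. Sult1c3, Ephx1 and Gstm7 passed with fenofibrate and Wy-14,643 and not with bezafibrate, and Ephx2 passed with Wy-14,643 alone. Of the UGT2 genes, 5 were lower with Wy-14,643, 1 (Ugt2a3) with fenofibrate and 0 with bezafibrate. The mean of fenofibrate, bezafibrate and Wy-14,643 against same-day vehicle, averaged over the 5 days, was higher for 17 and lower for 9 of the 49 tested members at an adjusted p of 0.05 (limma, Benjamini-Hochberg over all features). Over all 18384 features tested in this comparison, 45.5% were called, 21.6% higher and 23.9% lower, so that the members' share of lower calls was not above the background and their share of higher calls was. The median effect over the members was 0.05, against -0.002 over all features. By family, the higher and lower calls were 8 and 2 of 21 for cytosolic and microsomal glutathione S-transferases together, 5 and 1 of 9 for UGT1, 0 and 5 of 8 for UGT2, 1 and 0 of 5 for SULT1, 0 and 1 of 3 for SULT2, 2 and 0 of 2 for the epoxide hydrolases, and 1 of 1 for Nqo1. Of these 26 calls, 19 kept their direction and passed under all other settings tried, and those of Gsta3, Gstcd, Gstk1, Gstm1, Gstt2, Nqo1 and Ugt2b7 were lost under at least 1.

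Within the agonists, fenofibrate moved the most members, with 23 higher and 4 lower, against 37.0% of all features called (17.7% higher and 19.3% lower). Wy-14,643 had 14 higher and 10 lower, against 40.2% (19.1% and 21.2%). Bezafibrate had 4 higher and 3 lower, against 21.3% (11.4% and 9.89%), the smallest count of the 3, and Ugt1a3 was its 1 call of 7 that passed under all of those settings. Beyond the genes described below, fenofibrate raised Gstt3 by 0.61, Sult1a1 by 0.32 and Mgst1 by 0.27, and Wy-14,643 raised Mgst3 by 0.57 and Gstcd by 0.32 and lowered Ugt2b35 by 0.41, Ugt2b37 by 0.37 and Ugt2a1 by 0.30. The 3 falls with bezafibrate were Gstp3 by 0.34, Mgst2 by 0.29 and Gstp2 by 0.16. All compound effects in a tissue share the same vehicle arrays, so they are given side by side.

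**Figure D1:**
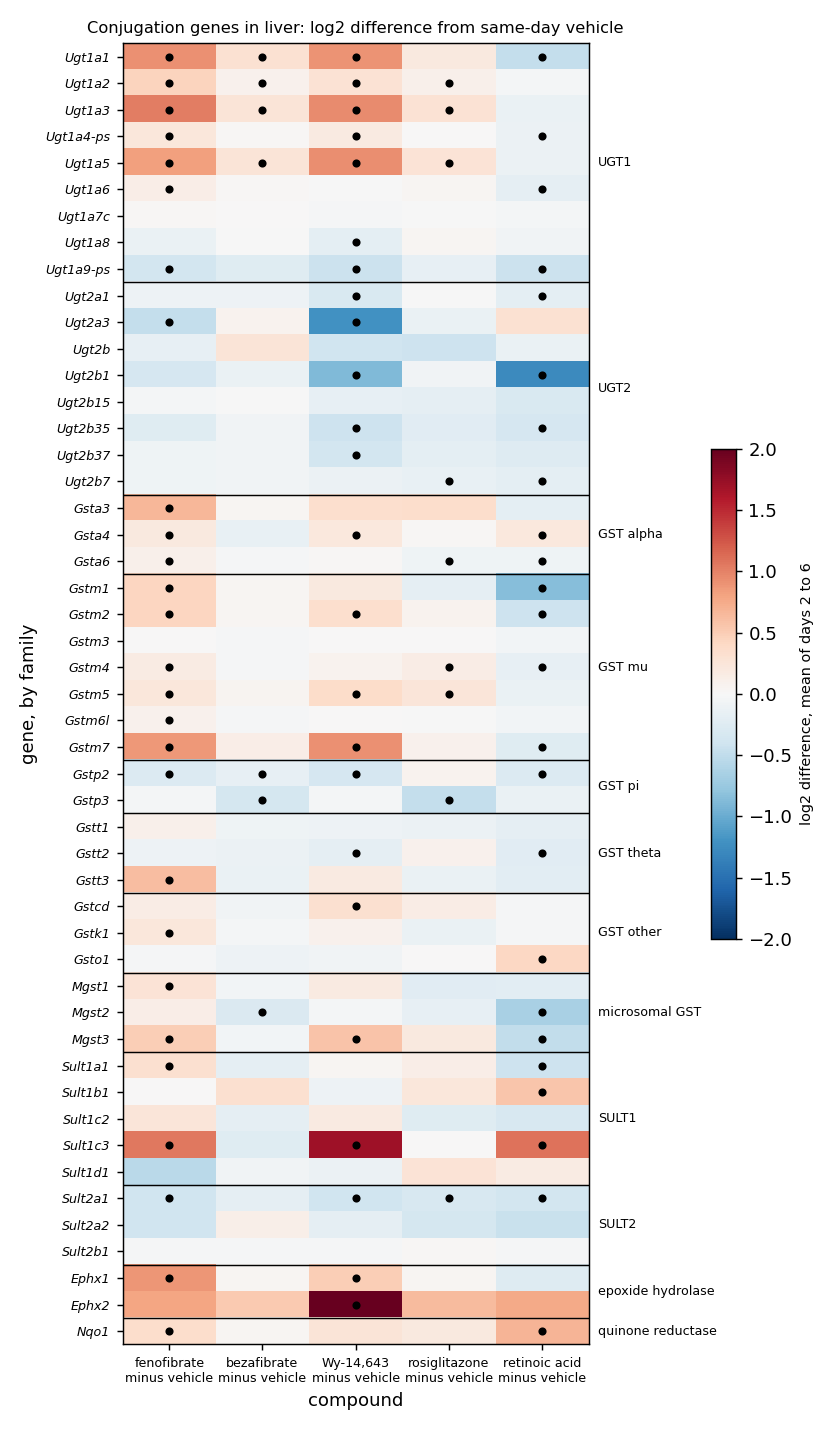
Log2 effect of each compound against same-day vehicle in liver for the tested conjugation enzymes, ordered by family, with a mark where the adjusted p was below 0.05. The Ugt1a1, Ugt1a3 and Ugt1a5 rows are high under fenofibrate and Wy-14,643, and the retinoic acid column is mostly low, with 5 higher and 19 lower calls.

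The UGT1 locus makes its enzymes from alternative first exons, each with its own promoter, joined to shared later exons, and the promoters of 4 first exons are shown because their genes differed in the test: Ugt1a3 and Ugt1a1 rose, whereas Ugt1a6 and Ugt1a7c did not pass in the PPARA agonist mean. The sequences are the 250 bases before the transcript start in the RefSeq annotation of GRCr8, on the plus strand, and capitals mark matches on either strand to GTTAAT, a half-site of the liver factor HNF1, or to GCGTG, the core of the xenobiotic response element.
Ugt1a3, chr9:96227884-96228133: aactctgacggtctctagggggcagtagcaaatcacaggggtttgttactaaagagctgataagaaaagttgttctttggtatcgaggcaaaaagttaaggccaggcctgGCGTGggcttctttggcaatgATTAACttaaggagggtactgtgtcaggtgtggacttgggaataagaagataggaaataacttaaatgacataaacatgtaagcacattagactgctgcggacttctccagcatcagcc
Ugt1a1, chr9:96248893-96249142: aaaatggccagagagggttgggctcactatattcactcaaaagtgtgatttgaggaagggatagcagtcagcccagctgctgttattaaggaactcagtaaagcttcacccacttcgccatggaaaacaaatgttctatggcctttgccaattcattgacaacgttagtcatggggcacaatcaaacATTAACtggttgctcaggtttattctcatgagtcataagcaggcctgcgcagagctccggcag
Ugt1a6, chr9:96194768-96195017: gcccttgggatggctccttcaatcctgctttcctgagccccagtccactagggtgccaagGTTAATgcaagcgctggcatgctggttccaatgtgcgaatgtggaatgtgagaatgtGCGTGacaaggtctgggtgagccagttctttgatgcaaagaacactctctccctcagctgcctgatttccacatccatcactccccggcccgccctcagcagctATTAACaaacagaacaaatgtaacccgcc
Ugt1a7c, chr9:96187132-96187381: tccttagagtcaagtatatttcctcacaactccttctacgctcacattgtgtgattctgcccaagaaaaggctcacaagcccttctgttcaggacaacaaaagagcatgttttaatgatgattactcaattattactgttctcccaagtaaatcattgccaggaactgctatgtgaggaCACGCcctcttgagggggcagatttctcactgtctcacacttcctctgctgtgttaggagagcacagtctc

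Ugt1a1, Ugt1a3 and Ugt1a6 held GTTAAT, as did Ugt1a2 with 2 matches, whereas Ugt1a7c held only GCGTG as its reverse complement. Ugt1a6 and Ugt1a3 held both motifs. GTTAAT occurred in 8 of the 43 members with a promoter entry and in 6.465% of 27457 such windows of 250 bases, and GCGTG in 13 of 43 and in 27.2% of them. The direct repeat of hexamer half-sites with a base between them, the type of element that PPARA and RXR bind, occurred in 0 of 43 members and 0.353% of all promoters, and TGACNNNGC, the core of the antioxidant response element, in 4 of 43 and 10.2%. These counts use only the first listed window of each gene, so a match found only in a further window of a gene is left out. Both strands were searched, and matches of different motifs can share bases: in Gstm5 and Gstcd a TGACNNNGC match overlaps a GCGTG match and counts in both tallies. A match of these letters is a description and no measured binding site.

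Ugt1a3, a transferase of the bilirubin-type first exons, had ratios to the pool of -0.16, 0.79 and 1.41 (lowest, median and highest) in the 44 PPARA agonist livers, against -0.41, -0.05 and 0.76 in the 73 vehicle livers. The groups overlapped, but 25 agonist livers lay above every vehicle liver. The mean effect was 0.74 ± 0.04 (SE, 1.67-fold, adjusted p = 4.6e-37), with 42 of 44 agonist livers above their same-day vehicle mean. Ugt1a1, the enzyme that conjugates bilirubin, had -0.17, 0.70 and 1.29 in agonist livers and -0.69, -0.02 and 0.63 in vehicle livers, with 25 agonist livers above every vehicle liver. Its effect was 0.71 ± 0.07 (1.64-fold, adjusted p = 1.4e-15). For Ugt1a5, a neighbouring first exon of the locus, the 3 values were -0.19, 0.70 and 1.33 in agonist livers and -0.61, 0.00 and 0.44 in vehicle livers, and 27 agonist livers lay above every vehicle liver. Its effect was 0.66 ± 0.06 (1.59-fold, adjusted p = 3.3e-20).

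Across compounds, the values of these 3 genes were largest with fenofibrate and Wy-14,643. Ugt1a3 rose by 1.03 with fenofibrate and 0.95 with Wy-14,643, and by 0.25 with bezafibrate and 0.29 with rosiglitazone (0.35 without rat 1376). Ugt1a1 rose by 0.92, 0.91 and 0.31 with the 3 PPARA agonists in the order fenofibrate, Wy-14,643 and bezafibrate, and its 0.19 with rosiglitazone did not pass (adjusted p = 0.18), whereas its 0.40 without rat 1376 did (adjusted p = 0.00053). Ugt1a5 rose by 0.81, 0.92 and 0.26 in that order and by 0.27 with rosiglitazone (0.40 without rat 1376). Smaller rises in the agonist mean were called for Ugt1a2, at 0.28 ± 0.02, and for the pseudogene Ugt1a4-ps, at 0.14. The pseudogene Ugt1a9-ps fell by 0.35 ± 0.07 (adjusted p = 4.5e-06).

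The first exons upstream in the locus gave smaller values. Ugt1a6, whose enzyme conjugates simple planar phenols, had an effect of 0.05 ± 0.03 (adjusted p = 0.10), with a 95% interval of -0.001 to 0.11. It rose by 0.14 with fenofibrate. Its 6 probes disagreed, spanning -0.11 to 0.55 in the agonist mean and -0.34 to 0.72 with Wy-14,643, so the averaged value does not stand for each of them. Ugt1a7c had an effect of 0.01 ± 0.02 and its 3 probes spanned -0.07 to 0.12. Ugt1a8 had -0.12 ± 0.06 (adjusted p = 0.072) and fell by 0.20 with Wy-14,643. Where in each transcript a probe lies is not known here, and probes in the shared exons would report all UGT1 transcripts together, so differences between UGT1 members are uncertain to that extent.

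**Figure D2:**
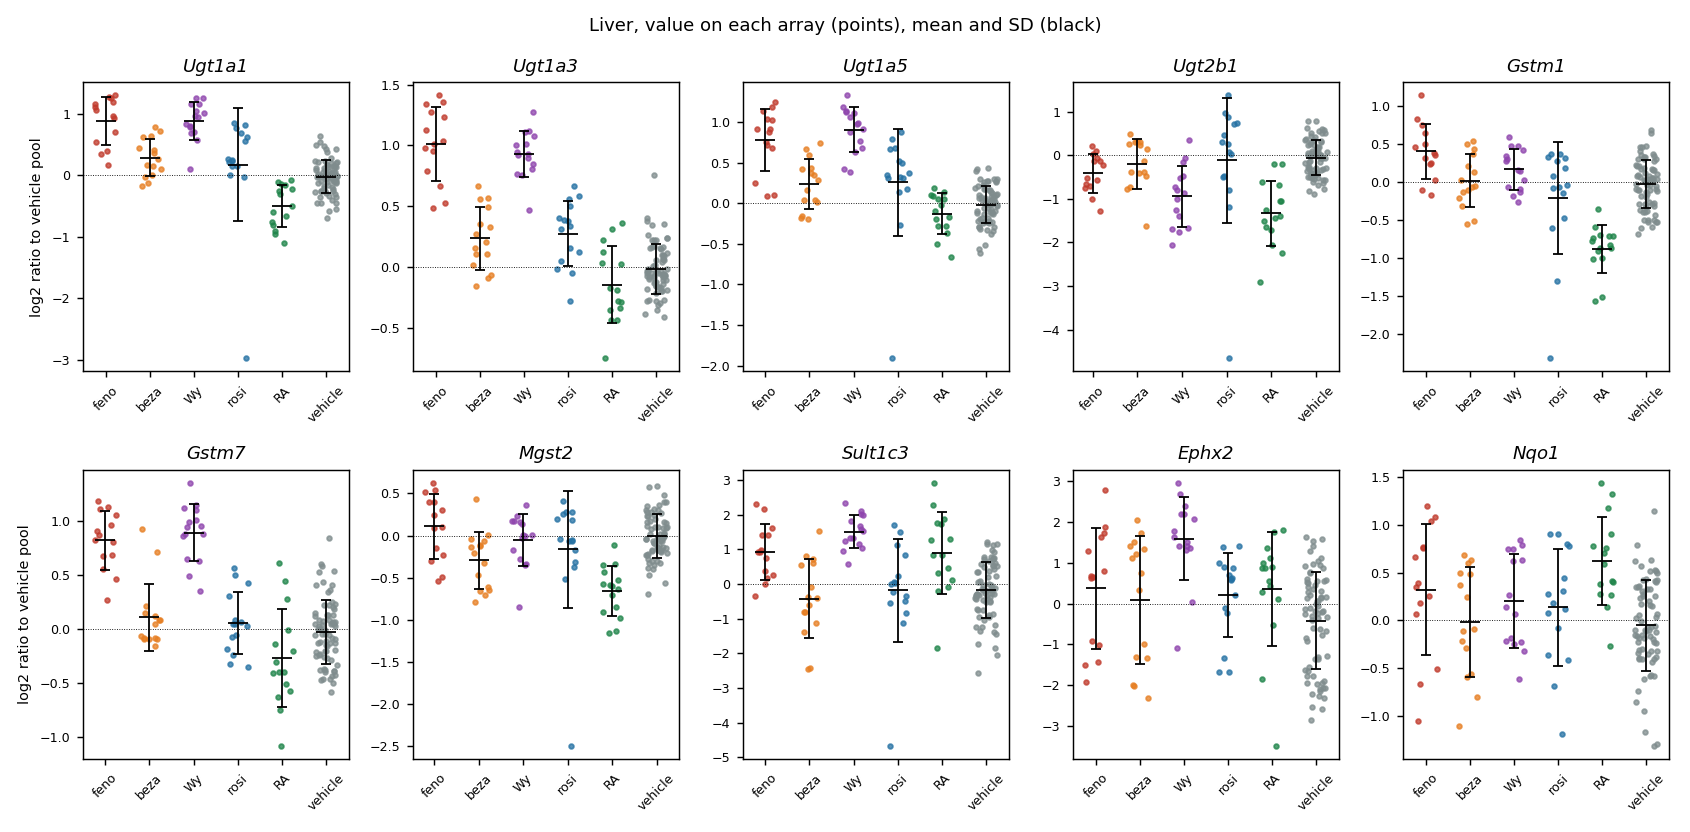
Log2 ratio to the vehicle pool of each liver array for the 10 members with the largest called liver effects in the PPARA agonist mean, rosiglitazone or retinoic acid comparison, 1 point per array with the group mean and SD, and compounds left of vehicle. Ugt1a3 reaches 1.41 in agonist livers against 0.76 in vehicle livers, and Ephx2, Sult1c3 and Nqo1 vary widely within every group.

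The UGT2 genes encode transferases for steroids, bile acids and many drugs. Ugt2a3 had ratios of -1.94, -0.53 and 1.12 in the agonist livers, against -1.55, -0.08 and 1.44 in vehicle livers, and 7 agonist livers lay below every vehicle liver. It fell by 0.54 ± 0.13 in the agonist mean (adjusted p = 0.00022, lower in 32 of 44 livers). Ugt2b1 had -2.06, -0.47 and 0.49 in agonist livers and -0.90, -0.01 and 0.79 in vehicle livers, with 10 agonist livers below every vehicle liver, and it fell by 0.45 ± 0.12 (adjusted p = 0.00075). Among the agonists both values were lowest with Wy-14,643: Ugt2a3 changed by -1.22 ± 0.19, a level 2.32-fold lower than vehicle, and Ugt2b1 by -0.88 ± 0.17. Ugt2b35, Ugt2a1 and Ugt2b7 also fell, by 0.24, 0.17 and 0.09. Ugt2b37 (-0.18), Ugt2b15 (-0.07) and Ugt2b (-0.10) did not pass. The UGT2B genes are close paralogs, and the files do not show whether a probe separates them.

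Of the 7 mu class glutathione S-transferases 4 were higher and 0 lower. Gstm7 had ratios of -0.16, 0.70 and 1.36 in agonist livers and -0.59, -0.05 and 0.84 in vehicle livers. The ranges overlapped, with 19 agonist livers above every vehicle liver, and the effect was 0.64 ± 0.06 (1.56-fold, adjusted p = 8.8e-19). It rose by 0.87 with fenofibrate and 0.92 with Wy-14,643, while its 0.14 with bezafibrate did not pass (95% interval -0.03 to 0.30). Gstm2, Gstm1 and Gstm5 rose by 0.27, 0.22 and 0.21, and Gstm3, Gstm4 and Gstm6l, at 0.00, 0.07 and 0.02, did not pass. Members of this class are similar in sequence, and signal shared between them was not tested.

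In the alpha class, Gsta3, whose human counterpart also isomerises steroid precursors, rose by 0.35 ± 0.10 (adjusted p = 0.0025), with 0.66 under fenofibrate. Gsta4, which conjugates the lipid peroxidation product 4-hydroxynonenal, had 0.08 in the agonist mean and did not pass there, although it rose by 0.19 with fenofibrate and 0.21 with Wy-14,643. Mgst3, a membrane-bound transferase and peroxidase, rose by 0.33 ± 0.06 (adjusted p = 5.0e-07). Gstcd and the mitochondrial and peroxisomal Gstk1 rose by 0.13 and 0.09. Gstp2 fell by 0.26 ± 0.04 (adjusted p = 4.3e-08, lower in 39 of 44 livers) and Gstt2 by 0.13. The other 7 tested transferases of the class groups alpha, pi, theta, omega and microsomal (Gsta6, Gstp3, Gstt1, Gstt3, Gsto1, Mgst1 and Mgst2) lay between -0.14 and 0.22 and did not pass.

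Sult1c3, of the phenol sulfotransferase family, had ratios of -2.45, 0.92 and 2.33 in agonist livers, against -2.56, -0.19 and 1.20 in vehicle livers. The groups overlapped, and 17 agonist livers lay above every vehicle liver. Its effect was 0.84 ± 0.17 (1.79-fold, adjusted p = 2.3e-05), with 3.25-fold under Wy-14,643 (1.70 ± 0.26) and a rise of 1.05 under fenofibrate. Under bezafibrate the ratios were -2.45, -0.40 and 1.51, and the effect of -0.24 ± 0.26 did not pass. All 15 Wy-14,643 livers were above 0, with 0.58 the lowest. Sult2a1, which sulfonates bile acids and hydroxysteroids, fell by 0.32 ± 0.08 (adjusted p = 0.00018, lower in 42 of 44 livers). Probes that name both Sult2a1 and Sult2a2 were left out, and signal from these paralogs may still be shared. Sult2a2 itself had an effect of -0.15 ± 0.31 and did not pass; its vehicle livers had an SD of 1.62. Sult1a1, Sult1b1, Sult1c2, Sult1d1 and Sult2b1 lay between -0.25 and 0.08 and did not pass.

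Ephx1, the microsomal epoxide hydrolase, had ratios of -0.73, 0.46 and 1.41 in agonist livers and -1.05, -0.05 and 0.80 in vehicle livers, and 11 agonist livers lay above every vehicle liver. It rose by 0.47 ± 0.08 in the agonist mean (1.38-fold, adjusted p = 6.7e-07). The rise was 0.88 ± 0.13 with fenofibrate and 0.49 with Wy-14,643, and the 0.03 with bezafibrate did not pass (95% interval -0.21 to 0.27).

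Ephx2, the soluble epoxide hydrolase that clears epoxides of fatty acids, had the largest effect of the tested members in the agonist mean, 1.10 ± 0.23 (2.15-fold, adjusted p = 2.9e-05), and also one of the widest spreads. Its ratios were -2.31, 1.30 and 2.95 in agonist livers and -2.85, -0.19 and 1.63 in vehicle livers, with 13 agonist livers above every vehicle liver. Wy-14,643 was the compound whose rise passed on its own, at 2.01 ± 0.34 (4.02-fold, adjusted p = 4.8e-07), with ratios of -1.09, 1.63 and 2.95 in its livers. Fenofibrate had 0.79 ± 0.36 (adjusted p = 0.072), bezafibrate 0.52 (0.31), rosiglitazone 0.63 (0.17; 0.72 and 0.15 without rat 1376) and retinoic acid 0.76 (0.083), none of which passed.

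Ephx2 also varied widely between vehicle rats. Among vehicle livers its SD was 1.19, at the 99.8th percentile of all features, whose median SD was 0.164. The vehicle livers fell into separate sets, 23 between -2.85 and -1.29 and 50 between -0.93 and 1.63. These sets were read from the values after they were seen and are not groups of the study, so no test compares them. The gap was read over all days together although every day has its own pool, so the set of a rat may depend on its day. In soleus the 8 vehicle rats of the low liver set had -2.45, -1.47 and -0.44 (lowest, median, highest), and the 25 of the high set had -0.83, 0.37 and 1.87. In quad the 18 rats of the low set had -2.12, -1.64 and 0.17, and the 40 of the high set -0.71, 0.14 and 1.43. Livers of all groups were split at the midpoint of the gap between these sets. On its low side were 0 of 15 with Wy-14,643, 3 of 14 with fenofibrate and 5 of 15 with bezafibrate. Rosiglitazone had 3 of 15, among them rat 1376 at -1.33, retinoic acid had 2 of 15 and vehicle 23 of 73. Inside the gap, but above its midpoint, lay Wy-14,643 rat 1216 (-1.09), fenofibrate rat 1146 (-1.01) and bezafibrate rat 1257 (-0.98). Their soleus values were -2.03, -1.04 and -1.20 in that order. Fenofibrate rat 1157, at -0.92 in liver just above the gap, counts on the high side and had -2.14 in soleus. The part of the unequal low-side shares in the Ephx2 effects was not tested. Because the values fell into sets, no correlation over all rats is given, and because every day has its own pool, day means within a set were subtracted. Within the high set, liver and soleus then correlated at r = 0.54 (rho = 0.60, permutation p = 0.0056 and 0.0019, n = 25; adjusted over 4 relations 0.017 and 0.0076; r = 0.56 without the 2 farthest rats), against r = 0.71 with days pooled. Liver and quad correlated at r = 0.41 (rho = 0.40, permutation p = 0.0085 and 0.012, n = 40; adjusted 0.017 and 0.023; r = 0.52 without the 2 farthest), against 0.48 with days pooled. Within the low set r was 0.57 in soleus (rho = 0.54, exact permutation p = 0.26 and 0.30, n = 6, since 2 rats were alone on their day; r = -0.64 without the 2 farthest) and -0.16 in quad (rho = -0.13, permutation p = 0.54 and 0.61, n = 18; r = 0.21 without the 2 farthest).

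**Figure D3:**
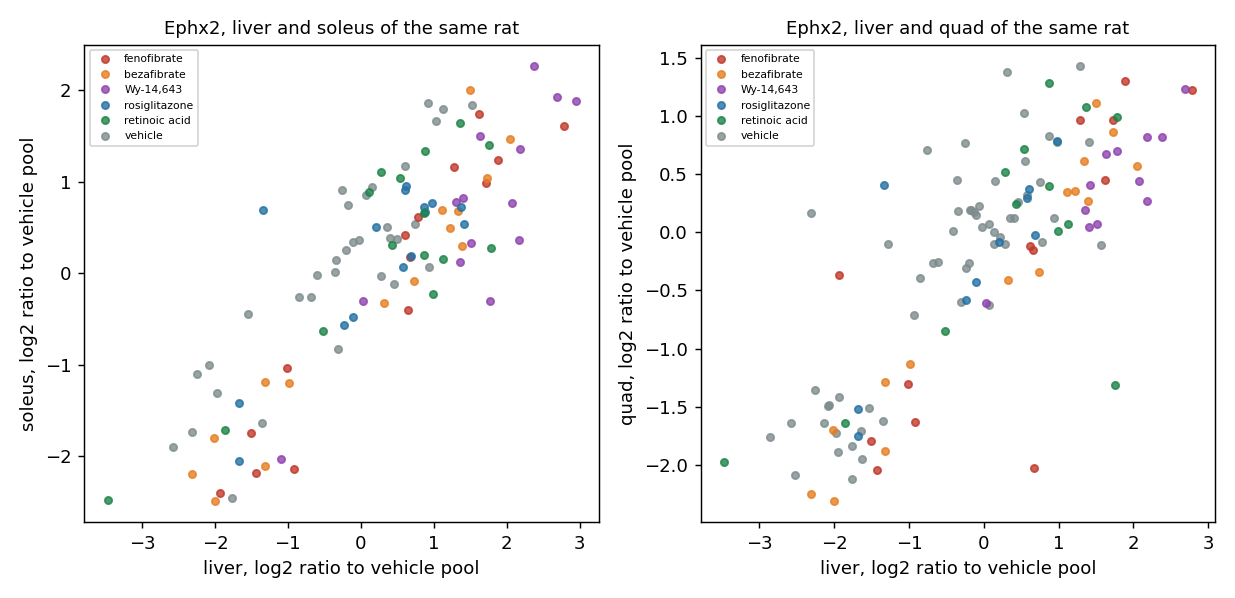
Ephx2 log2 ratio to the pool in soleus and in quad against liver of the same rat, 1 point per rat, coloured by treatment. Vehicle rats in the low liver set, between -2.85 and -1.29, are low in soleus, with a median of -1.47, and in quad, with a median of -1.64.

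Nqo1 had ratios of -1.10, 0.25 and 1.20 in agonist livers and -1.31, -0.10 and 1.15 in vehicle livers, and a single agonist liver lay above every vehicle liver. Its effect of 0.22 ± 0.09 passed narrowly (adjusted p = 0.041, higher in 28 of 44 livers). It rose by 0.36 with fenofibrate, and its 0.26 with Wy-14,643 and 0.04 with bezafibrate did not pass.

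With rosiglitazone, 9 members passed with all 15 livers and 14 without rat 1376. With all livers, 5 members were higher and 4 lower, against 22.7% of all features called (10.3% and 12.4%), and the member median was 0.00. Without rat 1376, 12 were higher and 2 lower, against 18.6% of features (6.38% and 12.2%). Ugt1a3 rose by 0.29 with all livers and 0.35 without that rat, and Ugt1a5 by 0.27 and 0.40. Ugt1a1 passed without it (0.40, adjusted p = 0.00053), as did Gsta3 (0.66), Sult1b1 (0.54) and Sult1a1 (0.34). Gstp3 fell by 0.48 with all livers and by 0.28 without it. The fall of Sult2a1, at -0.32 with all livers, was -0.05 without the rat and did not pass (adjusted p = 0.72). Ephx1 had 0.04 with all livers and 0.17 without the rat, and Nqo1 0.19 and 0.25, and none of these values passed.

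Retinoic acid lowered conjugation genes across families in liver. It had 5 members higher and 19 lower, against 29.2% of all features called (14.2% higher and 15.0% lower), and the member median was -0.18, against 0.00 over all features. Of 21 glutathione S-transferases 2 were higher and 9 lower, of 9 UGT1 genes 0 and 4, of 8 UGT2 genes 0 and 4, of 5 SULT1 genes 2 and 1, and of 3 SULT2 genes 0 and 1. Ugt2b1 had ratios of -2.90, -1.40 and -0.20 in retinoic acid livers, against -0.90, -0.01 and 0.79 in vehicle livers, and its effect of -1.27 ± 0.17 was a level 2.42-fold lower (adjusted p = 1.1e-09, lower in 15 of 15 livers). Gstm1, a major hepatic mu class enzyme, had -1.56, -0.82 and -0.36 in retinoic acid livers and -0.69, 0.02 and 0.67 in vehicle livers. The medians were separated although the ranges overlapped, and the gene fell by 0.85 ± 0.10 (adjusted p = 2.2e-12, 15 of 15 livers).

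Mgst2, which also conjugates leukotriene A4, had -1.15, -0.60 and -0.11 in retinoic acid livers and -0.69, -0.03 and 0.59 in vehicle livers, and it fell by 0.65 ± 0.09 (adjusted p = 6.1e-09, 15 of 15 livers). Mgst3 fell by 0.50, Ugt1a1 by 0.48, Ugt1a9-ps by 0.44, Sult1a1 by 0.42 and Gstm2 by 0.41. The 5 members that rose were Sult1c3 (1.09 ± 0.26, 2.12-fold), Nqo1 (0.67 ± 0.13, adjusted p = 2.5e-05), Sult1b1 (0.56 ± 0.15, adjusted p = 0.0029), Gsto1 (0.41 ± 0.06, adjusted p = 8.6e-09) and Gsta4 (0.21). Nqo1 had ratios of -0.26, 0.59 and 1.44 in retinoic acid livers, which overlapped the vehicle range given above. Sult1c3, with -1.85, 0.83 and 2.91, likewise overlapped. Ephx1 had -0.25 and did not pass (adjusted p = 0.11).

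Day by day, the UGT1 values of the PPARA agonists showed no called trend. For Ugt1a3 the agonist mean was 0.84, 0.74, 0.78, 0.63 and 0.73 on days 2 to 6. For Ephx2 it was 1.47, 1.36, 0.08, 1.68 and 0.94. A linear slope per day of the agonist mean was called for 0 of 49 members by limma, with 3 at an unadjusted p below 0.05, against 0.838% of all features called. The slope of rosiglitazone was also called for 0, with 5 unadjusted, against 0.196%, and without rat 1376 for 0 by limma, with 7 unadjusted, against 0.327%. The slope of retinoic acid was called for 4 members, all downward, against 9.38% of features (6.03% downward): Gstt1 by -0.18 ± 0.05 per day (adjusted p = 0.021), Gstm2 by -0.17 ± 0.04 (0.0073), Gstk1 by -0.12 ± 0.04 (0.037) and Ugt1a7c by -0.06 ± 0.02 (0.049). As a share of the 49 members this was close to the background. Gstm2 under retinoic acid had effects of 0.27, -0.49, -0.64, -0.68 and -0.50 on days 2 to 6, and without day 6 none of the 4 slopes was called.

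**Figure D4:**
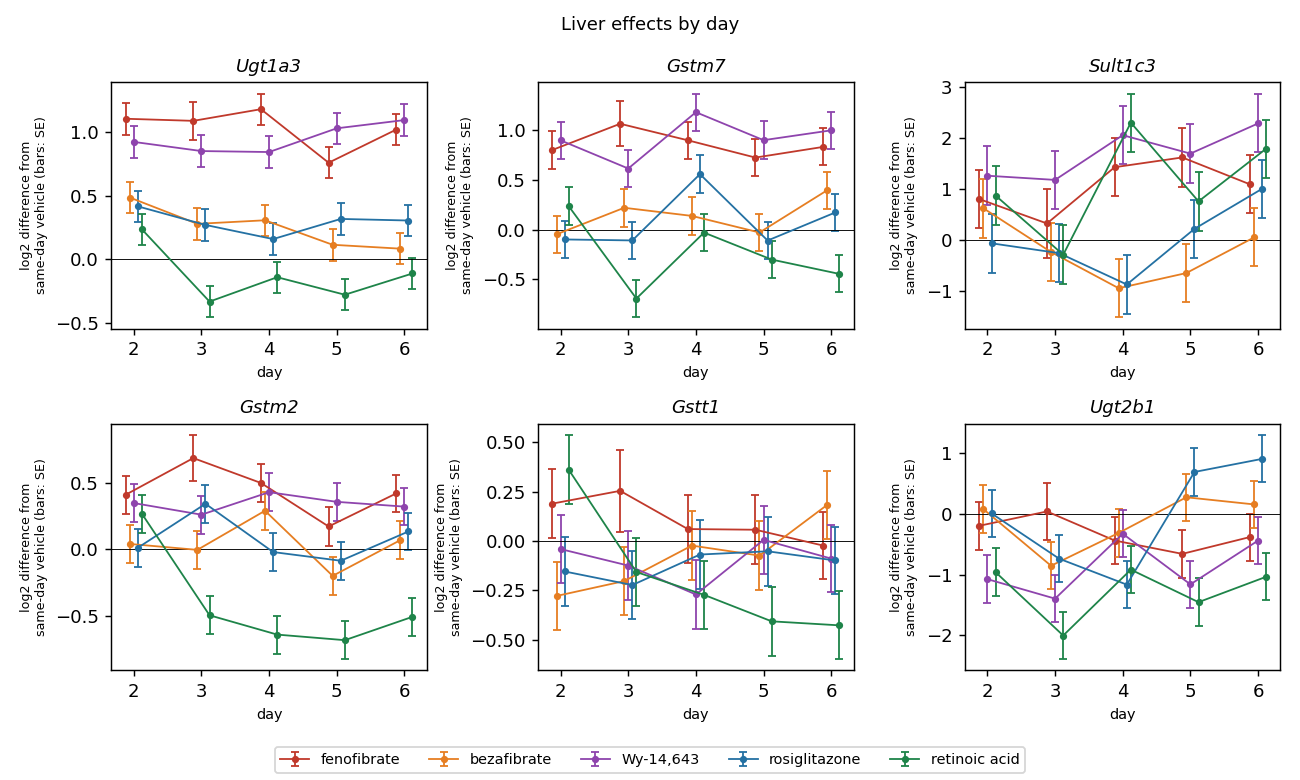
Log2 effect against same-day vehicle on days 2 to 6 in liver for Ugt1a3, Gstm7, Sult1c3, Gstm2, Gstt1 and Ugt2b1, 1 line per compound with its SE. The fenofibrate and Wy-14,643 lines of Ugt1a3 lie above the others on every day, and the Gstm2 line of retinoic acid is 0.27 on day 2 and between -0.49 and -0.68 on days 3 to 6.

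Wy-14,643 and rosiglitazone, ligands of PPARA and PPARG, were both given at 100 mkd, and 1 pair at matched dose and days was compared. Wy-14,643 exceeded rosiglitazone for 16 members and lay below it for 5, against 30.1% of all features (15.0% above and 15.2% below). The largest positive differences were Sult1c3 (1.70 ± 0.33), Ephx2 (1.37 ± 0.44, adjusted p = 0.012), Gstm7 (0.84 ± 0.11), Ugt1a1 (0.71 ± 0.14), Ugt1a3 (0.66 ± 0.07) and Ugt1a5 (0.65 ± 0.11). Without rat 1376 these 6 differences still passed, at 1.35, 1.29, 0.84, 0.51, 0.60 and 0.52 in that order. The largest negative ones were Ugt2a3 (-1.08 ± 0.25) and Ugt2b1 (-0.82 ± 0.22), which became -1.49 and -1.17 without rat 1376. Leaving that rat out gave 12 members above and 13 below, against 34.1% of features (18.6% and 15.5%), and the difference of 0.45 for Ephx1 was then 0.32 and did not pass (adjusted p = 0.094). Fenofibrate and bezafibrate are both fibrates, but their doses of 400 and 250 mkd differed, so a difference between them mixes compound and dose. At those doses fenofibrate exceeded bezafibrate for 21 members and lay below it for 0, against 19.8% of features (9.3% above and 10.5% below), with Sult1c3 (1.29), Ephx1 (0.85) and Ugt1a3 (0.78) furthest apart.

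In muscle the PPARA agonist mean called 0 of 53 members by limma in soleus and 0 of 53 in quad, against 1.96% and 0.841% of all features, and 4 and 5 members had an unadjusted p below 0.05. For Ugt1a3 the effect was 0.00 in both, with 95% intervals of -0.05 to 0.06 in soleus and -0.04 to 0.04 in quad, which leave out the liver value of 0.74. For Ephx2 it was 0.17 in soleus (-0.31 to 0.65) and 0.25 in quad (-0.10 to 0.59). Ephx1 had -0.12 and -0.05, and Nqo1 0.10 and 0.00.

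The difference between tissues was tested directly. The agonist effect in liver exceeded that in soleus for 15 of 49 members and lay below it for 4, against 24.3% of features (10.8% above and 13.5% below), and against quad the counts were 17 and 7, against 28.9% (14.1% and 14.7%). Relative to soleus the largest differences were Sult1c3 (0.96 ± 0.23), Ephx2 (0.94 ± 0.34, adjusted p = 0.033), Ugt1a1 (0.75) and Ugt1a3 (0.74). Relative to quad they were Ephx2 (0.86 ± 0.29), Sult1c3 (0.81), Ugt1a3 (0.74) and Ugt1a5 (0.72). With rats as a replicate block, that is, on differences between tissues of the same rat, 16 members were called against soleus and 21 against quad, against 15.3% and 23.9% of features in that fit, and Ephx2 had 0.87 ± 0.12 and 1.05 ± 0.15. In the blocked fit Gsta3, Ugt1a8 and Ugt2a1 no longer passed against soleus (adjusted p = 0.16, 0.054 and 0.28), nor did Gstt2, Ugt1a6 and Ugt2b7 against quad (0.12, 0.14 and 0.13).

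**Figure D5:**
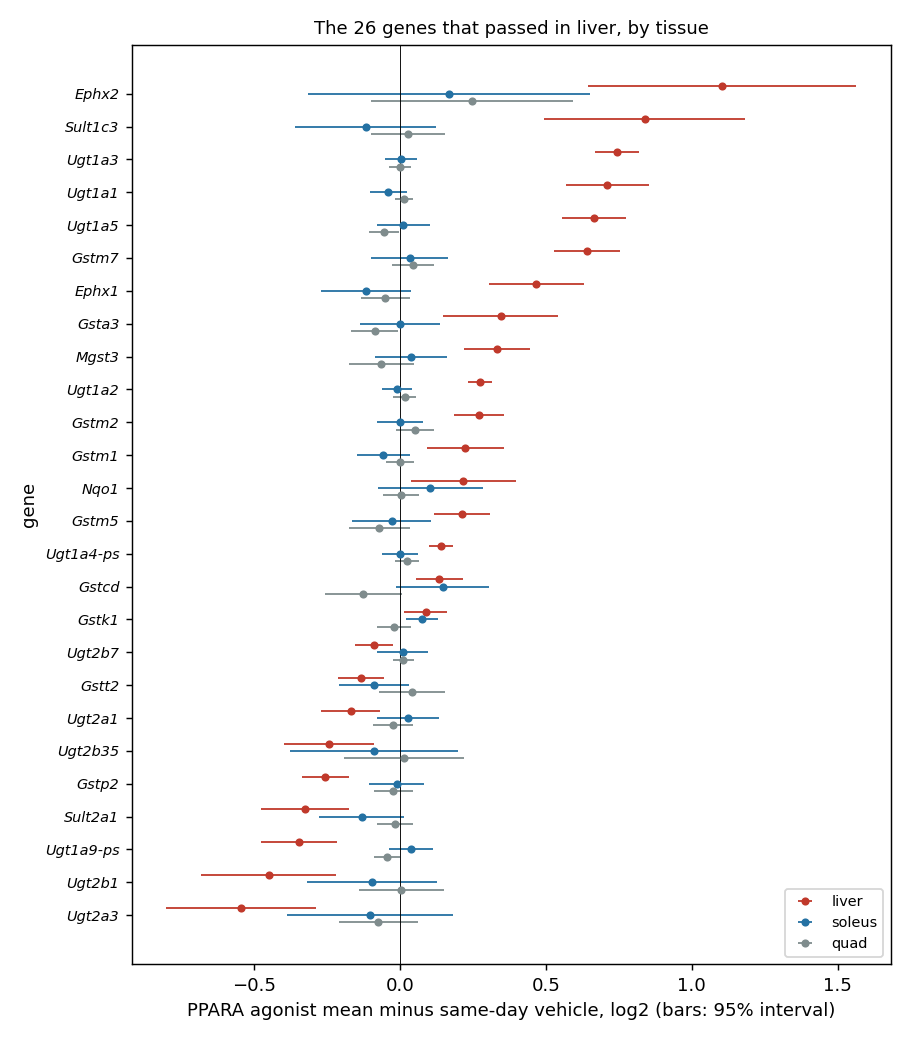
Log2 effect of the PPARA agonist mean with its 95% interval in liver, soleus and quad for the 26 conjugation enzymes called in liver, 1 row per gene. The Ugt1a3 point lies at 0.74 in liver and at 0.00 in both muscles.

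Single compounds changed few members in muscle. In soleus, fenofibrate raised Gstk1 by 0.15 ± 0.04 (adjusted p = 0.0071, 18 of 19 arrays) and lowered Gstm4 by 0.12 (adjusted p = 0.048), against 3.33% of features called. Rosiglitazone raised Mgst1, against 2.63% of features: its ratios were -0.52, 0.23 and 1.73 in treated and -0.89, -0.09 and 2.12 in vehicle soleus, which overlapped, with an effect of 0.50 ± 0.13 (adjusted p = 0.018). Retinoic acid lowered Sult1a1, the main phenol sulfotransferase, against 2.85% of features: -1.35, -0.74 and 0.78 in treated and -1.15, -0.03 and 0.57 in vehicle soleus, with an effect of -0.56 ± 0.11 (adjusted p = 0.00012). In quad, rosiglitazone raised Gstt2 by 0.30 (adjusted p = 0.023) and lowered Mgst3 by 0.34 (0.0059), against 6.86%. Retinoic acid lowered Sult1a1 by 0.34 ± 0.08 (adjusted p = 0.0022, 14 of 18 arrays) and Mgst2 by 0.16 (0.0070, 18 of 18) in quad, against 2.42%.

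Sult1a1 was lower under retinoic acid in liver, soleus and quad, where the treated arrays came from rats that partly overlap between tissues. Bezafibrate and Wy-14,643 called 0 members in soleus by limma (1 and 2 unadjusted, against 0.904% and 0.191% of features) and 0 in quad (4 and 4 unadjusted, against 1.63% and 0.0163%). Fenofibrate called 0 in quad, with 6 unadjusted, against 5.69%.

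EDL had no vehicle rats of its own, so its agonist ratios were set against the pool, as a mean over the 3 agonists at their EDL doses. The mean covers days 4 to 6, which all 3 agonists had, and leaves out the Wy-14,643 arrays of day 3. The mean was above 0 for 9 of 53 members and below it for 23, against 59.2% of all features called (30.8% above and 28.5% below). The lowest were Sult2a6 (-0.51), Gstp2 (-0.32), Gstm7 (-0.28) and Mgst3 (-0.23), and the highest Sult1d1 (0.27), Gstcd (0.24), Gsta4 (0.22) and Gsta1 (0.20). Ephx1 had -0.20, Ephx2 0.01 and Nqo1 -0.02. Set against the EDL arrays of the other compounds instead, 0 of the 53 were called by limma, with 4 at an unadjusted p below 0.05, so an effect of the agonists cannot be told apart from a shift of all EDL rats against their pool.

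The genes around these enzymes in liver were read from lists of pathway members. Over all features 45.5% were called in the PPARA agonist mean, 21.6% higher and 23.9% lower, and each count in this paragraph stands against those shares. A list with a share of calls near or below them does not stand apart from the background. The PPARA agonist mean raised 7 and lowered 0 of 8 tested PPARA targets, with a median of 1.79 against -0.002 over all features. Of 14 NRF2 targets outside the families 9 were higher and 2 lower, among them the NADPH source Me1 (1.53), the retinal oxidising Aldh1a1 (1.33) and Cbr1 (0.57), while Hmox1 fell by 0.30. Of 13 genes of glutathione synthesis and recycling 3 were higher and 1 lower, with Gpx4 at 0.32 and Gclc, which makes the rate-limiting step, at -0.18. Of 4 genes of UDP-glucuronate supply 1 was higher and 2 lower, with Ugp2, which makes UDP-glucose, at -0.91. Of 10 genes of sulfate activation and hydrolysis 2 were higher and 3 lower, with Papss2, which makes the sulfate donor, at -0.29. Of 15 responders of CAR, PXR and the aryl hydrocarbon receptor 6 were higher and 3 lower, with Cyp2b12 at 0.45 and Cyp1a2 at -0.93. Of 13 receptors 2 were higher and 6 lower, with Nr1i3, which encodes CAR, at 0.72, and of 9 other conjugation enzymes 0 were higher and 2 lower, with the glycine transferase Glyat at -0.34.

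Under retinoic acid 0 of the 8 PPARA targets were higher and 6 lower, against 29.2% of all features called (14.2% higher and 15.0% lower). Ppara itself changed by -0.74, Nr1i3 by -0.27, Ugp2 by -0.76, Gclc by -0.46 and Glyat by -0.95. Under rosiglitazone Acot1 rose by 1.92 and Cyp2b12 by 0.73, and by 2.17 and 0.88 without rat 1376.

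Markers of cell types moved in the same livers. Of 12 hepatocyte markers on the array 6 were tested in liver, and of 6 endothelial markers 5. In the PPARA agonist mean 0 of the 6 tested hepatocyte markers were higher and 3 lower (Apoc3 -0.70, Ttr -0.62 and Apoa1 -0.55). Of 11 macrophage and leukocyte markers 0 were higher and 10 lower, and of the 5 tested endothelial markers 0 and 4. Of 5 red blood cell markers 1 was higher and 4 lower. These counts stand against 45.5% of all features called. The median hepatocyte marker ranged over -0.91 to 0.02 in fenofibrate livers, -0.65 to 0.21 in bezafibrate livers, -0.80 to -0.13 in Wy-14,643 livers and -0.78 to -0.21 in retinoic acid livers, against -0.54 to 0.33 in vehicle livers. Macrophage markers ranged over -0.68 to -0.09 with fenofibrate and -0.60 to -0.10 with Wy-14,643, against -0.42 to 0.38 in vehicle livers. Endothelial markers ranged over -0.49 to -0.09 with fenofibrate and -0.43 to -0.09 with Wy-14,643, against -0.46 to 0.24 in vehicle livers. Alb, the main secreted liver protein, changed by -1.53 with retinoic acid. The part of these shifts in the results for the conjugation enzymes was not tested.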

How the data were processed

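RNA of single rats (Cy5) was hybridised on 2-colour arrays against pooled vehicle RNA of that tissue and day (Cy3), per the labels. The deposited values are log10 ratios, 23653 probes by 484 arrays. Their normalisation is not given in the sources used here. Their scale was read from the limits of -2 and 2, and their direction from the dyes. Deposited log10 ratios were multiplied by 3.32 to give log2 ratios. Missing values were 0.907% and values at the limit 699. Intensities were not used, and precision depends on the number of arrays.

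The platform table named 1 gene for 15260 probes, several for 17 and none for 8376. Probes of a gene were averaged, giving 10210 genes and, with unnamed probes, 18603 features. Features with values on at least 80% of the arrays of a comparison were tested.

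Each tissue was modelled with a mean for every compound on every day, using limma 3.58.1 in R 4.3.3 over all compounds and vehicle. Compounds were set against same-day vehicle and the 5 days averaged with equal weight. EDL ratios were averaged over days 4 to 6 and tested against 0. P-values are two-sided and adjusted by Benjamini-Hochberg over all features of a comparison at 0.05. SE is limma's standard error. Tissue differences were contrasts within a joint fit of the liver and muscle arrays, with a mean for every tissue, compound and day. Both tissues shared the estimate of the spread of a feature there. The median vehicle SD over all features was 0.164 in liver, 0.351 in soleus and 0.186 in quad. Blocked tissue differences were differences within a rat. Same-numbered samples were taken as the same rat, and the numbers pair the tissues on that reading. Deviations from the group mean correlated at a median r of 0.143 (106 rats, liver and soleus) and 0.147 (120 rats, liver and quad). Between different numbers the medians were -0.036 and -0.019. Some numbers differed widely in Ephx2. Number 1316 had 1.76 in liver, 1.41 in soleus and -1.32 in quad, and number 1150 had 0.67, 0.17 and -2.02. Whether every number pairs samples of the same rat was not tested. Labels say nothing of cage or batch.

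The members and lists were chosen with earlier results of these data known. Named are up to 8 rises and 8 falls per liver comparison with the largest change among members that passed (4 in other comparisons), the member with the largest change in a family where none passed, Ephx1, Ephx2 and Nqo1 always, and up to 4 genes per list with the smallest adjusted p. Values by array are given for the 10 members with the largest called effects in the liver PPARA agonist mean, rosiglitazone or retinoic acid comparison; other members named or given by array, such as Ugt2a3 and Ephx1, were chosen after their values were seen.

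Alternatives were array medians subtracted, arrays scaled to a common spread, array quality weights and features with a value on every array. Others were ratios to the pool tested against 0, each day left out, the replicate block and, in EDL, other compounds in place of the pool. In a further setting each gene was represented in each comparison by its probe with the smallest p, a choice that favours passing. Probes of a gene took both directions in 45 of 234 pairs of gene and liver comparison against vehicle, and in 7 of the 97 called pairs. Arrays in doubt were also left out together. They had a median absolute deviation over 3 times the tissue's median, or another tissue's markers over 2 log2 units above same-day arrays. Leaving out these arrays singly, and the block without them, were added after seeing the data. Simulated data in which 200 genes changed were used to check the fit. Promoters came from RefSeq (GRCr8), and 43 of 53 members matched. Other steps used Python 3.11.15, numpy 2.4.6, pandas 2.3.3, scipy 1.17.1 and matplotlib 3.10.9.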

Additional observations from a re-analysis of the deposited data

Results flagged for a closer look

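Effects of the PPARA agonist mean that differed between liver and muscle, by a contrast of the effects themselves, are listed first, each with the liver effect on top. Liver minus quad was 0.86 for Ephx2, 0.81 for Sult1c3, 0.74 for Ugt1a3 and 0.72 for Ugt1a5, and negative for Ugt2a3 (-0.47), Ugt2b1 (-0.46), Sult2a1 (-0.31) and Ugt1a9-ps (-0.30). Liver minus soleus was 0.96 for Sult1c3, 0.94 for Ephx2, 0.75 for Ugt1a1 and 0.74 for Ugt1a3, and negative for Ugt1a9-ps (-0.39), Ugt1a8 (-0.29), Gstp2 (-0.25) and Ugt2a1 (-0.20).

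Effects of retinoic acid in liver that differed between days, by a slope per day, were those of Gstt1 (-0.18), Gstm2 (-0.17), Gstk1 (-0.12) and Ugt1a7c (-0.0617).

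Single EDL arrays stood far from the others of their group by Dixon's criterion. Of 44 groups of values tested 9 met it. The 44 groups came from 11 members measured on the same arrays, so they were not independent of each other. Rat 1242 and Ephx2, which fell into sets in vehicle livers, account for several of the 9. The rate of about 1 in 20 for independent groups therefore does not apply, and an excess over chance was not tested. Rat 1242 of bezafibrate at 25 mkd was the highest of its group for Gsta4 (1.53), Nqo1 (1.25), Ephx1 (0.99) and Gstcd (0.94). Ephx2 was lowest in bezafibrate rat 1235 (-2.43), rosiglitazone 10 mkd rat 1348 (-2.19) and fenofibrate rat 1132 (-1.74). Mgst3 was lowest in rosiglitazone 100 mkd rat 1373 (-0.63), and Gstp2 in rosiglitazone 10 mkd rat 1352 (-0.43).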

How the results depend on the processing

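Counts by single probes use, for each gene and comparison, the probe with the smallest p. The number of members called moved by over 1.5 times under these settings. Apart from the fit without rat 1376, the share of all features called under each setting is not given in this section. Whether a shift in a count was particular to the members was therefore not tested. In liver, bezafibrate had 7 calls and 15 with array quality weights, 3 without day 2, 3 without day 3 and 2 without day 6. Rosiglitazone had 9 calls, 15 with weights, 14 without the arrays in doubt, 14 without rat 1376 and 16 by single probes. The slope per day of the PPARA agonists had 0 calls, 2 with weights and 3 from ratios to the pool, and that of rosiglitazone 0 and 3 with weights. The slope of retinoic acid had 4 calls, 2 with array medians subtracted, 1 with a common spread, 14 with weights, 2 from pool ratios, 1 without day 2, 0 without day 6 and 7 by single probes. Fenofibrate minus bezafibrate had 21 calls and 13 without day 5.

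In soleus, pool ratios gave 17 calls for the PPARA agonist mean (0 in the vehicle comparison, 1 without day 2), 7 for fenofibrate (2), 6 for bezafibrate (0), 4 for Wy-14,643 (0), 11 for rosiglitazone (1) and 13 for retinoic acid (1). Fenofibrate also had 1 with medians subtracted, 4 with weights, 4 without the arrays in doubt, 4 without vehicle rat 1022, 1 without vehicle rat 1061, 1 without day 2, and 0 without day 4 or day 5. Rosiglitazone had 0 without day 2, day 5 or day 6 and 2 by single probes, and retinoic acid 2 without vehicle rat 1034. In quad, pool ratios gave 12 calls for the agonist mean (0; 1 with weights), 6 for fenofibrate (0), 3 for bezafibrate (0) and 6 for rosiglitazone (2). Fenofibrate also had 3 without day 3, 2 without day 5, 2 without bezafibrate rat 1256, 1 without vehicle rat 1068 and 4 by single probes. Rosiglitazone had 5 with a common spread, 6 with weights, 0 without day 3 or day 5, 1 without day 4 and 4 without day 6, and retinoic acid (2) had 1 without day 2 and 1 without day 4. EDL had 32 calls, 0 against other compounds and 49 by single probes. The counts of 0 among these alternatives came from limma, with 3 to 7 members at an unadjusted p below 0.05. The cause of these shifts was not tested.

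Values that changed sign were Ugt2b7 under rosiglitazone (0.0782 without day 4) and, in EDL, Gsta5 without day 6 (0.00405) and, against other compounds, Gsta5 (0.0186), Gsta6 (0.00626), Gstcd (-0.0910), Gstk1 (0.00731), Gstm5 (0.0364), Gstp3 (0.0237), Mgst1 (-0.0512), Mgst3 (0.13), Sult1c3 (-0.00999), Ugt1a3 (-0.0205) and Ugt1a7c (0.0317). Under all other liver settings tried, 19 of 26 calls of the liver agonist mean kept direction and passed, 15 of 27 of fenofibrate, 20 of 24 of Wy-14,643, 17 of 24 of retinoic acid, 1 of 7 of bezafibrate and 1 of 9 of rosiglitazone. With the replicate block (within-rat differences), calls for liver minus soleus and liver minus quad were 16 and 21, against 15.3% and 23.9% of features. Without the arrays in doubt they were 24 and 24, and the share of all features in that fit is not given. The calls that the block changed in the text are given in the report. Precision is limited by 2 to 4 arrays per treated group and day, and by ratios without intensities.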

Other observations

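Several conjugation genes varied between vehicle livers far more than the median feature, whose SD was 0.164. Sult2a2, a hydroxysteroid sulfotransferase, had an SD of 1.62, with 47 livers between -3.56 and -1.11 and 26 between -0.32 and 1.87. Ugt2b had an SD of 0.96, with 23 livers between -2.34 and -0.92 and 50 between -0.49 and 1.03. Sult1d1 had 1.07, with 1 liver at 6.64, the limit of the scale, and Sult1c3 had 0.81. The sets of Sult2a2 and Ugt2b were also read over all days together, after the values were seen. The median SD over the tested members was 0.228.

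Some members varied together between tissues of the same vehicle rat. Of 156 relations between tissues, with day means subtracted, 7 had an adjusted permutation p below 0.05 for r, 3 of them for Ephx2, which fell into sets. Gstt1, a theta class transferase, correlated between soleus and quad at r = 0.78 (rho = 0.68, permutation p = 1.0e-05, the smallest that can be given, and 0.00014, n = 28, adjusted p = 0.00039 and 0.0044; r = 0.82 without the 2 farthest rats) but not detectably between liver and quad (r = -0.17, rho = -0.17, permutation p = 0.21 and 0.21, n = 58). Sult1a1 correlated between soleus and quad at r = 0.72 (rho = 0.64, permutation p = 8.0e-05 and 0.00031, n = 28, adjusted p = 0.0025 and 0.0081), which was 0.46 without the 2 farthest rats. Passing after adjustment for r but not for rho were Sult1a1 between liver and quad (r = 0.41, rho = 0.32, n = 58, permutation p = 0.0013 and 0.014, adjusted 0.035 and 0.16; 0.37 without the 2 farthest) and Nqo1 between liver and soleus (r = 0.52, rho = 0.42, n = 33, permutation p = 0.0018 and 0.017, adjusted 0.039 and 0.18; 0.33 without the 2 farthest). Passing for rho but not for r, between soleus and quad, were Gstp2 (r = 0.45, rho = 0.69, n = 28, permutation p = 0.024 and 1.0e-04, adjusted 0.35 and 0.0039; r = 0.48 without the 2 farthest) and Gsta4 (r = 0.44, rho = 0.59, n = 28, permutation p = 0.020 and 0.0012, adjusted 0.32 and 0.027; r = 0.53 without the 2 farthest). The points share rats and days, and arrays in doubt were kept.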
